A study of Caenorhabditis elegans with 6 samples.

Results

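Of the 227 rows of a short-RNA count table from *Caenorhabditis elegans* that are annotated as nuclear tRNA genes or tRNA pseudogenes, 12 met a rule for a higher level in every *rpc-1* RNAi sample than in any vector control, with a 4-fold ratio. A row was taken when its ID ended in .t and digits, when it had 10 or more counts in each RNAi sample, when its lowest RNAi level exceeded its highest control level, and when its mean RNAi level was 4 or more times its mean control level. Levels are counts per 1000000 counts of a sample (CPM). The 227 rows comprised 143 tRNAs and 84 tRNA pseudogenes. Of them, 90 had enough counts under RNAi and 21 of these had their lowest RNAi level above their highest control level, while 8 had their highest RNAi level below their lowest control level. Over transcripts of every kind with enough counts, 14.4% of 738 were separate in the first direction and 7.05% in the second. The filter asks for counts under RNAi only, so it drops rows that fell to few counts there. Among those dropped are 22 of the 227 rows that had no counts in any RNAi sample but 10 or more in some control. The 2 directions therefore cannot be weighed against each other from these figures. Of the 147 rows with 10 or more counts in some sample, 92 had a lower mean CPM under RNAi and 55 a higher one. The 12 rows chosen are 11 tRNAs and 1 annotated tRNA pseudogene, ZK678.t4, so the ID does not by itself make every row a tRNA. The rows were chosen by their CPM in the RNAi and control samples themselves, so their own levels in the 2 groups are only described below. Where a test over all transcripts includes these rows, nothing is read from it for them.

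The samples were whole adult worms of the wild-type Bristol N2 background, 3 fed bacteria with RNAi against *rpc-1* and 3 fed bacteria with the empty vector. RNAi began at the L4 larval stage and RNA was taken on the second day of adulthood, from worms raised as for lifespan assays, whose plates carry FuDR, which blocks DNA synthesis, unless otherwise specified. *rpc-1* encodes the largest subunit of RNA polymerase III, and the study describes this RNAi as a partial knockdown. The *rpc-1* mRNA is not a short transcript of this table and its level was not analysed here, nor can markers of single tissues be read from short RNAs.

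RNA polymerase III (Pol III) transcribes tRNA genes from promoter elements that lie inside the gene itself. Each tRNA carries 1 amino acid to the ribosome and reads its codons through the anticodon, and most anticodons are served by many gene copies, often of identical sequence. The names used below give the amino acid, the anticodon, a number for the mature sequence and a number for the locus, as assigned by the genomic tRNA database that the study used. Names that begin with tRX have NNN in place of the anticodon. Identical copies share a sequence number. Of the rows, 141 had such a name, and these held 140 distinct sequences, so nearly every named row stands for a sequence of its own. The annotation holds 612 nuclear tRNA genes, most of which have no row in the table.

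The table's totals were 19386526, 20014617 and 21685824 in *rpc-1* RNAi replicates 1, 2 and 3, and 18108863, 9362216 and 18464616 in vector control replicates 1, 2 and 3. Nuclear tRNAs took 0.351% to 1.12% of counts under RNAi and 1.34% to 9.87% in controls. A change in CPM is therefore a change in share, and in whole worms fewer cells of a type cannot be told apart from less RNA per cell. Nothing in the labels says that the samples of a group came from separate cultures, so p-values below measure the spread between these samples.

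The 12 rows summed to 391, 393 and 560 CPM in RNAi replicates 1, 2 and 3, and to 37.99, 41.7 and 26.97 CPM in control replicates 1, 2 and 3. The mean sums were 447.8 ± 97.0 CPM under RNAi and 35.5 ± 7.64 CPM in controls (SD, n = 3 each), a ratio of 12.6. Of the counts on nuclear tRNAs and ZK678.t4, the 12 rows made up 3.501%, 7.96% and 15.9% in the RNAi samples and 0.0385%, 0.310% and 0.0749% in the controls. The denominator of these shares, the nuclear tRNA part of each sample, was itself lower under RNAi, as given above.

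**Figure D1:**
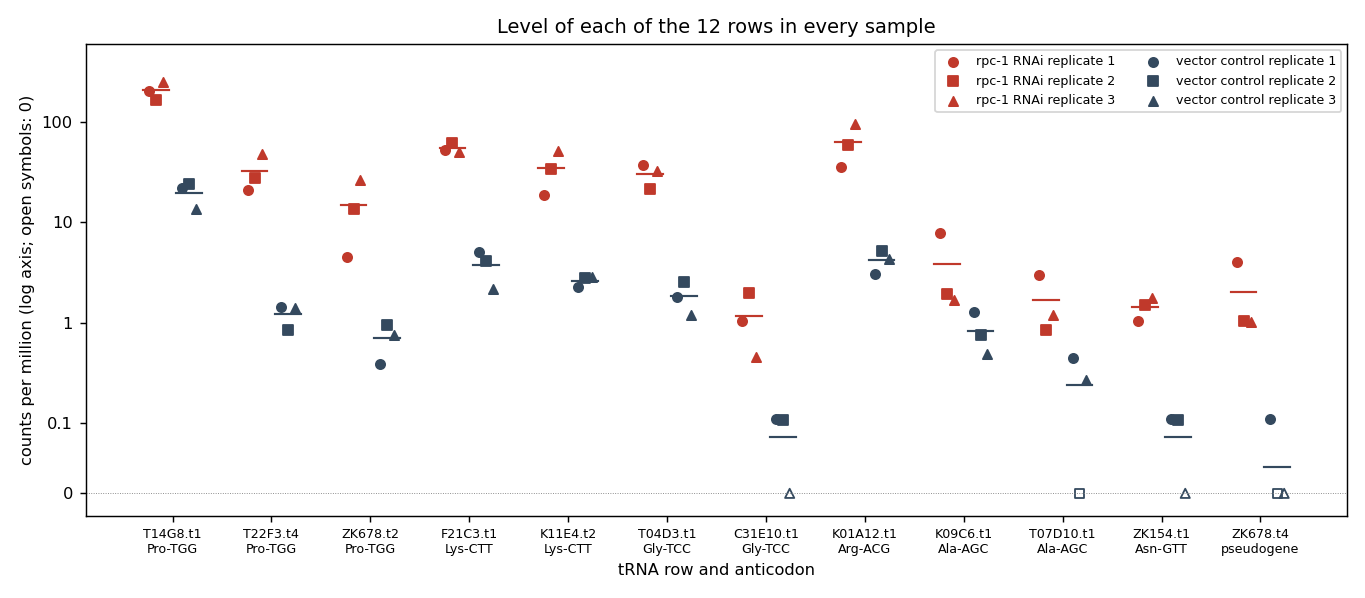
Level of each of the 12 rows in CPM (log axis) in the 3 *rpc-1* RNAi samples (red, left of each pair) and the 3 vector controls (dark, right), with a line at each group mean and open symbols where a sample had 0 counts. The groups of every row are separate, as the choice of rows requires, and group means under RNAi run over a range of 1.16 to 206.7 CPM.

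The 3 proline tRNAs with the anticodon TGG, which reads proline codons of the CCN box, held most of the counts of the set. T14G8.t1 (tRNA-Pro-TGG-3-1, WBGene00014519, X:12854840-12854911, minus strand, WBcel235) had 3964, 3347 and 5388 counts in the RNAi samples and 397, 226 and 249 in the controls. Its mean level was 206.7 ± 40.7 CPM under RNAi and 19.8 ± 5.62 CPM in controls (SD, n = 3 each), a ratio of 10.4. Per kilobase of gene length it was the most abundant of the 12 rows in both groups, at 2871 CPM per kb under RNAi and 275.7 CPM per kb in controls.

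T22F3.t4 (tRNA-Pro-TGG-6-1, V:3582131-3582202, minus strand) had 406, 554 and 1044 counts under RNAi and 26, 8 and 26 in controls. It averaged 32.3 ± 14.2 CPM in RNAi samples and 1.23 ± 0.328 CPM in controls (SD, n = 3 each), a ratio of 26.2, the largest of the rows with more than 3 control counts in all. The gene lies in an intron of *pygl-1*, which encodes glycogen phosphorylase, on the opposite strand. ZK678.t2 (tRNA-Pro-TGG-8-1, X:15748031-15748101, plus strand) is listed by the database as of uncertain function. It had 88, 270 and 574 counts under RNAi and 7, 9 and 14 in controls. Its RNAi samples differed 5.83-fold between replicates 3 and 1, more than the highest and lowest RNAi sample of any other row, and its means were 14.8 ± 11.03 CPM under RNAi and 0.702 ± 0.291 CPM in controls (SD, n = 3 each), a ratio of 21.1. Without RNAi replicate 3 that ratio was 12.8.

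The tRNA pseudogene ZK678.t4 (X:15748316-15748387, minus strand) lies 215 bases from ZK678.t2, and both are inside an intron of *srxa-9*, a serpentine receptor gene of the class thought to sense chemicals. ZK678.t4 had 79, 21 and 22 counts under RNAi and 2, 0 and 0 in controls. The ratio of its pooled rates was 45.9 (exact 95% interval 12.4 to 383, counting error only). Its log2 ratio of means was 5.797, and 4.81 without RNAi replicate 1. These neighbours differed in which RNAi sample was highest: replicate 3 had 5.83 times the CPM of replicate 1 for ZK678.t2 and 0.249 times for ZK678.t4. Another listed row of the cluster, ZK678.t5, a tRNA-like proline gene 162 bases from ZK678.t2, had 4, 7 and 12 counts under RNAi and 7, 4 and 9 in controls, so the groups overlapped there.

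Both lysine tRNAs of the set carry the anticodon CTT, which reads the codon AAG. F21C3.t1 (tRNA-Lys-CTT-2-1, I:7279355-7279427, minus strand), in an intron of the protein-coding gene F21C3.7 in the same orientation, had 1016, 1243 and 1089 counts in the RNAi samples and 91, 39 and 40 in the controls. Its RNAi samples were the closest to each other of all 12 rows, with a highest-to-lowest ratio of 1.24, and it averaged 54.9 ± 6.33 CPM under RNAi and 3.79 ± 1.47 CPM in controls (SD, n = 3 each). K11E4.t2 (tRNA-Lys-CTT-5-1, X:13716493-13716565, plus strand) had 361, 690 and 1113 counts under RNAi and 41, 26 and 53 in controls, with means of 34.8 ± 16.4 CPM in RNAi samples and 2.64 ± 0.326 CPM in controls (SD, n = 3 each). The ratios of means were 14.5 for F21C3.t1 and 13.2 for K11E4.t2.

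The arginine tRNA K01A12.t1 (tRNA-Arg-ACG-5-1, X:8623603-8623675, plus strand) lies opposite to the gene K01A12.3, in an intron. The first base of the anticodon ACG is usually edited to inosine, which lets it read several arginine codons of the CGN box. It had 695, 1172 and 2096 counts in the RNAi samples and 56, 49 and 80 in the controls, or 63.7 ± 30.7 CPM in RNAi samples and 4.22 ± 1.08 CPM in controls (SD, n = 3 each), a ratio of 15.1. As for K11E4.t2, T22F3.t4 and ZK678.t2, RNAi replicate 3 was highest and replicate 1 lowest.

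The glycine rows, both listed under the anticodon TCC for the codons GGA and GGG, were a regular gene and a degenerate one. The name of the degenerate one gives no anticodon. T04D3.t1 (tRNA-Gly-TCC-5-1, I:13324995-13325066, plus strand) had 721, 434 and 701 counts under RNAi and 33, 24 and 22 in controls, with means of 30.4 ± 7.93 CPM in RNAi samples and 1.86 ± 0.687 CPM in controls (SD, n = 3 each) and a ratio of 16.4. C31E10.t1 (tRX-Gly-NNN-2-1, X:14010253-14010324, plus strand) is listed by the database as of uncertain function with a truncated start, and lies in an intron of *tbc-19*, on the opposite strand. It had 20, 40 and 10 counts under RNAi and 2, 1 and 0 in controls, with a ratio of pooled rates of 17.5 (exact 95% interval 5.76 to 87.1). Its log2 ratio of means was 4.01, and 3.37 without RNAi replicate 2. The lowest RNAi sample of C31E10.t1 had the minimum of 10 counts that the rule asks for.

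The remaining tRNAs of the set had few counts. The alanine tRNAs K09C6.t1 (tRNA-Ala-AGC-6-1, V:857325-857396, plus strand) and T07D10.t1 (tRNA-Ala-AGC-4-1, I:12601778-12601845, plus strand) are both called of uncertain function by the database. K09C6.t1 had 152, 39 and 37 counts under RNAi and 23, 7 and 9 in controls, a ratio of means of 4.59 and a log2 ratio of 2.20. Without RNAi replicate 1 its log2 ratio was 1.13 and it no longer met the rule, nor did it meet the rule without control replicate 3. T07D10.t1 had 58, 17 and 26 counts under RNAi and 8, 0 and 5 in controls, a ratio of pooled rates of 5.84 (exact 95% interval 3.27 to 11.4). Its log2 ratio of means was 2.82, with 2.11 without RNAi replicate 1 and 3.63 without control replicate 1. The asparagine tRNA ZK154.t1 (tRNA-Asn-GTT-2-1, X:7773190-7773262, plus strand), in an intron of the degenerin channel gene *deg-1* and in its orientation, had 20, 30 and 38 counts under RNAi and 2, 1 and 0 in controls, a ratio of pooled rates of 22.1 (exact 95% interval 7.30 to 109).

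**Figure D2:**
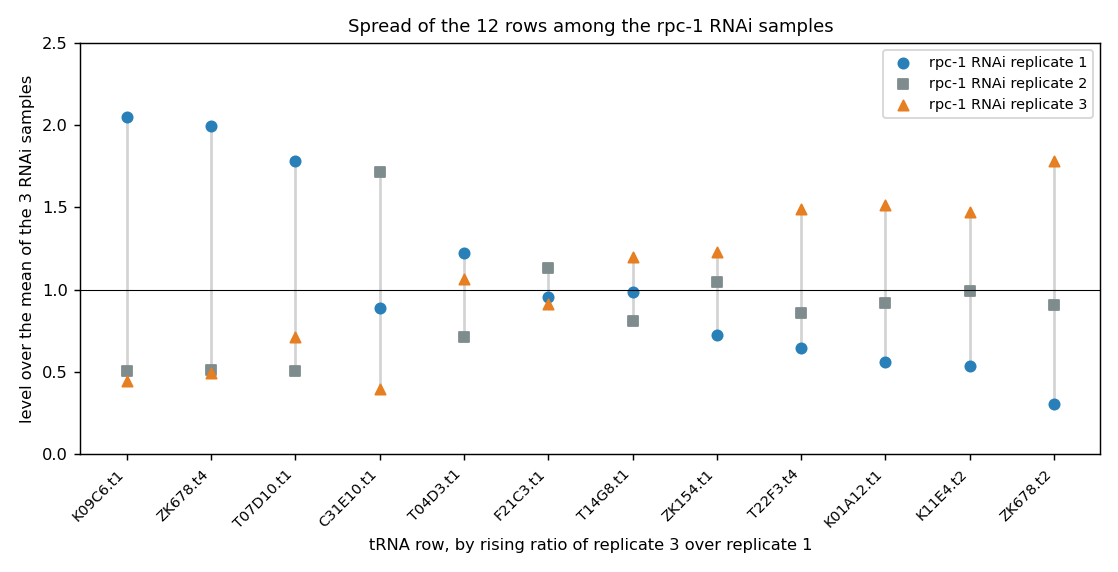
CPM of each of the 12 rows in each *rpc-1* RNAi sample over the mean of the 3 RNAi samples, with rows ordered by the ratio of replicate 3 over replicate 1. The ratio runs over a range of 0.218 for K09C6.t1, on the left, to 5.83 for ZK678.t2, on the right. C31E10.t1 and F21C3.t1 were highest in replicate 2.

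The 12 rows did not vary together among the RNAi samples. The highest RNAi sample was replicate 1 for 4 rows, replicate 2 for 2 and replicate 3 for 6. K09C6.t1, ZK678.t4, T07D10.t1 and T04D3.t1 peaked in replicate 1. F21C3.t1 and C31E10.t1 peaked in replicate 2. The spread between the highest and lowest RNAi sample reached 5.83-fold for ZK678.t2, 4.595-fold for K09C6.t1 and 4.33-fold for C31E10.t1, and the smallest ratio between groups in the set was 4.59.

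Against other tRNA-type rows, the set stood low in controls. Among the 147 tRNA-type rows with 10 or more counts in some sample, 92 had a lower mean CPM under RNAi than in controls and 55 a higher one. The median level of the 12 rows was 315.6 CPM per kb of gene length under RNAi, against 53.2 for the other 135 rows. In controls it was 14.4 CPM per kb, against 176.1 for the other rows. Under RNAi 8 of the 12 were above the median of the other rows and in controls 1 was, T14G8.t1. The rule favours rows with low control levels and asks for 10 or more counts in each RNAi sample. The other 135 rows needed 10 counts in some sample only, and 22 of them had no RNAi counts. The differences in both groups therefore follow in part from the choice of rows, so this is a description.

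**Figure D3:**
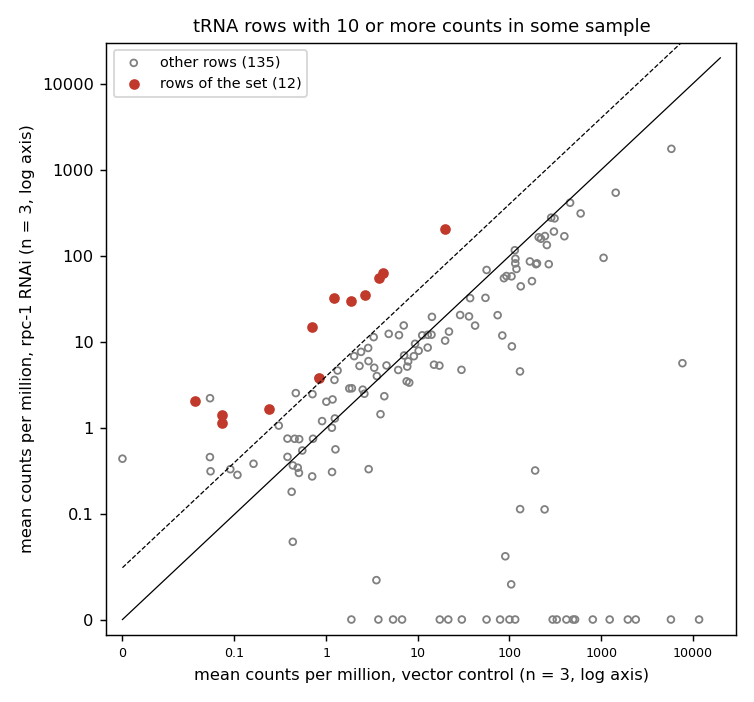
Mean CPM under *rpc-1* RNAi (vertical, log axis) and in vector controls (horizontal, log axis) for the 147 tRNA-type rows with 10 or more counts in some sample, with the 12 rows of the set filled. The solid line marks equal means and the dashed line the 4-fold ratio of the rule. Along the lower edge are 22 other rows with 0 counts in every RNAi sample.

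The edge of the rule was narrow for a few rows. Just inside it was K09C6.t1, with a ratio of 4.59, and the next was T07D10.t1 at 7.07. Just outside by ratio, with groups that did not overlap, were the aspartate tRNA Y54G2A.t4 at 3.506, the proline tRNA T22F3.t3 at 3.501, the aspartate tRNA C06G1.t4 at 3.46, the proline tRNA F47E1.t3 at 3.20, the pseudogene D1005.t1 at 2.97 and the proline tRNA K12H4.t1 at 2.95. T22F3.t3 (tRNA-Pro-TGG-5-1) lies 6112 bases from T22F3.t4 and had 58, 35 and 59 counts under RNAi and 22, 3 and 11 in controls. B0513.t1 had a ratio of 4.63 but overlapping groups. By counts, K02D3.t1 (tRNA-Lys-CTT-7-1), 2766 bases from K11E4.t2, missed the rule with 8, 13 and 7 counts under RNAi and 1, 1 and 0 in controls, and the pseudogene Y59E1B.t1 missed it with 4, 55 and 81 under RNAi and 0, 0 and 3 in controls.

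Without its condition on the ID, the rule was met by 43 of the 738 transcripts of any kind with 10 or more counts in each RNAi sample (5.83%). Among tRNA-type rows the share was 12 of 90 (13.3%). It was 17 of 281 (6.05%) among ncRNAs antisense to a tRNA gene, 11 of 119 (9.24%) among other ncRNAs, and 3 of 199 (1.51%) among small nuclear and nucleolar RNAs. None of 23 mitochondrial transcripts and none of 6 rRNA rows met it.

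In the DESeq2 Wald test across all transcripts at 10% FDR, 34 of 1083 were higher under RNAi (3.14%) and 45 were lower (4.16%). Of the 12 rows, 10 were among the higher ones, all but K09C6.t1 and T07D10.t1. With the replicate number as a block, 135 of 959 transcripts were higher (14.1%) and 143 lower (14.9%), and all 12 rows were among the higher. With total-count size factors 69 of 1032 transcripts were higher and 59 lower, again with all 12 rows among the higher. Nothing is read from these counts, because the same contrast chose the rows.

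The 11 tRNAs of the set fall under 6 anticodons for 6 amino acids, and 21 other listed rows carry the same anticodons. They enter the rule only as rows that failed it, so the rows that rose most were taken out of this list beforehand. Of the 19 that could be tested, 0 were higher and 3 lower under RNAi (DESeq2, 10% FDR). Over all 1083 transcripts tested, 3.14% were higher and 4.16% lower. The median log2 fold change was -0.30, against 0.00 over all transcripts tested. The lack of higher rows and the negative median follow in part from how the list was made. The 3 lower rows were also the only ones with an unadjusted p under 0.05. With the replicate block 5 of the 20 tested were called, 1 higher (T22F3.t3) and 4 lower. That fit called 14.1% of 959 transcripts higher and 14.9% lower. The edgeR test called 1 of 14, F42G10.t1, against 57 of 796 transcripts. Without vector control replicate 1, 5 of 20 were called, 1 of them higher, against 106 of 983 transcripts.

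The 3 that fell are high-confidence tRNA genes that were abundant in at least some controls. F42G10.t1 (tRNA-Arg-ACG-2-1) had 0, 0 and 21 counts under RNAi and 5951, 933 and 2667 in controls (DESeq2 adjusted p = 2.26e-10). C11E4.t1 (tRNA-Ala-AGC-1-14) is listed at 0, 0 and 0 under RNAi and at 13401, 0 and 2759 in controls (adjusted p = 2.26e-11). F57G8.t1 (tRNA-Asn-GTT-1-8) is listed at 0, 0 and 1 under RNAi and at 4108, 0 and 1605 in controls (adjusted p = 0.00341). For C11E4.t1 and F57G8.t1, control replicate 2 is also listed at 0, so a zero in this table occurred in both groups. That sample was the shallowest, with 9362216 counts against 18108863 and 18464616 in control replicates 1 and 3. The reason for its zeros was not tested. Salmon, which made these estimates, divides reads among transcripts that resemble each other, so the count of a single tRNA among near-identical ones is uncertain, for these rows and for the 12 alike.

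By summed CPM, the anticodons differed in how much of their listed counts fell on the rows of the set. For proline TGG, the 3 rows held 94.8%, 97.8% and 98.0% of the anticodon's counts in the RNAi samples and 71.1%, 94.6% and 66.9% in controls. For lysine CTT, the 2 rows held 94.7%, 95.4% and 95.2% under RNAi and 75.4%, 65.0% and 66.9% in controls. These rows were thus most of the listed counts for both anticodons in each sample. The sums of listed rows, the set included, were 9.32 times as high under RNAi as in controls for TGG and 10.1 times for CTT. Most of these counts are from rows chosen for rising, and no listed row of either anticodon carries the sequence number 1. The sums therefore do not give the level of all tRNAs with these anticodons.

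For arginine ACG the rows of the set were the minority only in controls. K01A12.t1 held 91.8%, 79.4% and 68.6% of ACG counts under RNAi and 0.773%, 4.89% and 0.921% in controls, while the whole ACG sum was 0.260 times the control level. For alanine AGC the 2 rows held 22.9% to 34.7% under RNAi and 0.222% to 4.58% in controls, and the whole sum was 0.0576 times the control level. For asparagine GTT, ZK154.t1 held 32.8% to 43.2% under RNAi and 0.0484% and 8.33% in control replicates 1 and 2, with 0 counts in control replicate 3, and the whole sum was 0.0340 times the control level. For glycine TCC the 2 rows held only 3.17% to 14.7% under RNAi and 0.212% to 0.793% in controls, and the whole sum was 0.969 times the control level.

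**Figure D4:**
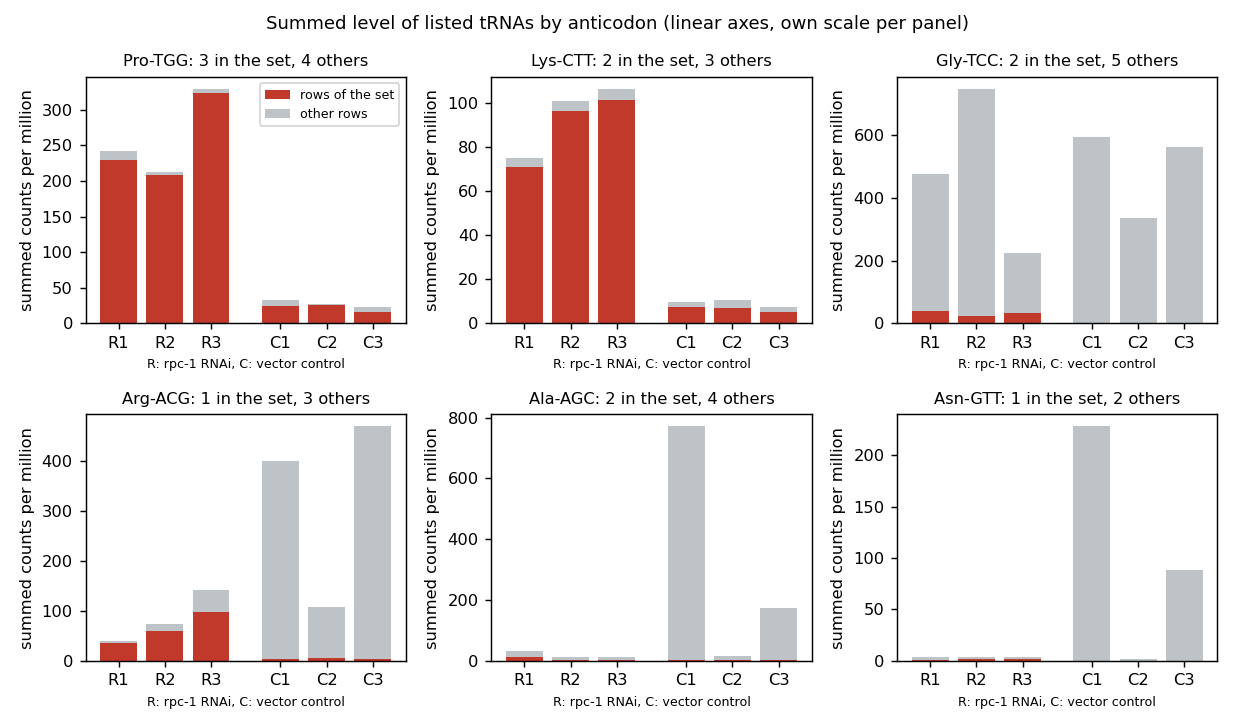
Summed CPM (linear axes, own scale per panel) of listed tRNAs for the 6 anticodons of the set, in *rpc-1* RNAi replicates (R1 to R3) and vector control replicates (C1 to C3), split into rows of the set (red) and other rows (grey). The red part is nearly the whole bar for Pro-TGG and Lys-CTT under RNAi, and the grey part is most of the bar for Arg-ACG, Ala-AGC and Asn-GTT in controls.

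Without the rows of the set, the sums of the 21 other rows were 480, 759 and 258 CPM under RNAi and 2000, 458 and 1296 CPM in controls. The means were 499.0 ± 251.0 CPM under RNAi and 1251 ± 772 CPM in controls (SD, n = 3 each), a ratio of 0.399, and the groups overlapped (exact two-sided permutation p = 0.3, where the smallest possible is 0.1). The log2 ratio was -1.33, and it turned to 1.58 when nuclear tRNA counts were the denominator in place of all counts. By anticodon, the other rows did not overlap between groups for ACG, at 3.20, 15.2 and 44.2 CPM under RNAi and 397, 102 and 466 CPM in controls. The other CTT rows did not overlap either, at 3.97, 4.65 and 5.12 CPM under RNAi and 2.37, 3.74 and 2.49 CPM in controls. Each had an exact permutation p of 0.1, the smallest possible, and 0.3 after Benjamini-Hochberg adjustment over the 6 anticodons. The other rows for TGG, TCC, AGC and GTT overlapped, with exact permutation p from 0.2 to 0.7. By same-numbered pairs, a comparison added after the data were seen, the other rows were lower under RNAi in 3 of 3 pairs for ACG and for AGC and higher in 3 of 3 for CTT. Flipping the signs of the pairs gave each an exact p of 0.25 (two-sided), the smallest that this sign-flip test can give with 3 pairs. For TGG, TCC and GTT the pairs differed in direction.

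More widely, 47 other listed rows carry the amino acid of a row of the set. Of the 43 tested, 0 were higher and 9 lower, against 3.14% higher and 4.16% lower over all 1083 transcripts tested. The median log2 fold change was -0.54, against 0.00 over all transcripts, and 11 had an unadjusted p under 0.05. Here too the rows of the set were taken out beforehand, so the direction follows in part from how the list was made. With the replicate block 19 of 43 tested were called, 3 higher and 16 lower, against 135 higher and 143 lower of 959 transcripts. Without RNAi replicate 1, 15 of 41 were called, 2 higher and 13 lower, against 58 higher and 122 lower of 944 transcripts. The edgeR quasi-likelihood test called 7 of 35, all lower, against 27 higher and 30 lower of 796 transcripts.

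At 2 of the 12 loci the table lists an ncRNA on the opposite strand that overlaps the tRNA gene by 40 bases or more. C31E10.10 overlaps C31E10.t1 by 62 bases and had 29405, 4384 and 9012 counts under RNAi and 35091, 2155 and 6881 in controls. C31E10.t1 was 0.163% of the counts of the pair under RNAi and 0.0068% in controls, and the pair's summed CPM was 0.848 times the control level. C47C12.8 overlaps ZK154.t1 by 58 bases and had 17, 17 and 27 counts under RNAi and 14, 9 and 13 in controls. ZK154.t1 was 59.1% of the counts of that pair under RNAi and 7.69% in controls, and the pair's summed CPM was 2.73 times the control level.

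Of the 2 antisense ncRNAs, 0 were called by DESeq2, by DESeq2 with the block or by edgeR, and 0 had an unadjusted p under 0.05 in any of these fits. The study does not state whether reads were assigned by strand, and without strand the reads of a tRNA and its antisense partner cannot be told apart. With antisense counts added to the tRNA, the log2 ratio of C31E10.t1 was -0.24 and that of ZK154.t1 1.45, and neither met the rule. The other 10 rows have no such partner in the table, and their log2 ratios were the same with this addition.

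In position and annotation the rows shared few features. Of the 12, 7 lie on chromosome X, 3 on I and 2 on V, whereas 68 of the 215 other tRNA-type rows lie on X, 19 on I and 57 on V. Most annotated nuclear tRNA genes have no row, and identical copies of a named row are nearly always listed at a single locus. Positions and locus numbers are therefore those of the listed copies. An annotated intron holds 8 of the 12, and in 7 cases the host is protein-coding, with 3 in the host's orientation and 4 opposite. How many of the 215 other rows lie in an intron was not computed, so whether this is particular to the set is not known. The eighth, K09C6.t1, lies in an intron of the ncRNA K09C6.2 in its orientation. T14G8.t1, T04D3.t1, K11E4.t2 and T07D10.t1 lie in no annotated intron.

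By database class, 7 of the 11 named rows are high-confidence tRNAs and 4 of uncertain function, against 102 and 18 of 130 other named rows. All 11 carry the locus number 1, against 94 of 130 others, and 0 carry the sequence number 1, against 38 of 130. The locus and sequence numbers were compared after the names of the set were seen, among 14 features in all, and no test was made of any.

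The nearest other listed tRNA-type row was within 11080 bases for 6 of the 12 and at 129813 bases or more for the other 6. C52G5.t1, 11080 bases from T14G8.t1 and a valine tRNA, is listed at 0, 0 and 0 under RNAi and at 256068, 12176 and 35185 counts in controls. The leucine tRNA ZK678.t1, 5898 bases from ZK678.t2, is listed at 0, 0 and 0 under RNAi and at 15678, 1458 and 4320 in controls. These neighbours were chosen after their values were seen, and whether any reads were shared with the set was not tested.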

How the data were processed

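Whole-worm RNA under 200 nucleotides was demethylated and sequenced in pairs of reads. The authors trimmed reads with Cutadapt, estimated transcript abundance with Salmon on an index of WBcel235 RNAs with decoys, and imported the short sequences with tximport, and the deposited values are these estimated counts, all whole numbers. Sample titles gave the groups and the replicate numbers. Coordinates and biotypes came from the Ensembl annotation of WBcel235, and anticodons and classes from the genomic tRNA database that the study used.

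The members and lists were chosen with earlier results of these data known. Members followed the rule given in the report. All members were named, and besides them antisense ncRNAs, called tRNAs with a member's anticodon, rows nearest to the rule's limits, and a few neighbours chosen after their values were seen.

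All 2526 transcripts were fitted with the DESeq2 1.42.0 Wald test (R 4.3.3, median-of-ratios size factors, group only, Benjamini-Hochberg adjusted p under 10% FDR). The fit was repeated with the replicate block, with the quasi-likelihood test of edgeR 4.0.16 (TMM factors), with other size factors and filters, and with each sample left out, and the rule and sums with other denominators and with antisense counts added. Both fits were tested on simulated data, where false calls of DESeq2 were more frequent than its nominal 10%, so the FDR of its calls here is nominal. Single sums were compared by exact permutation over 20 labelings, on log2(CPM + 1). Ratios of pooled rates have exact intervals that cover counting error only. Same-numbered samples deviated together from their group means (Pearson r = 0.553, 0.204 and 0.396 over 817 transcripts for replicates 1, 2 and 3). Samples of unlike number gave r from -0.413 to 0.136, the highest for RNAi replicate 2 with control replicate 3. The numbers were taken to pair the samples only in the block fit and the comparisons by same-numbered pairs. No label states this pairing, and it is least clear for replicate 2. The main fit and the permutations of sums did not use it. Within groups, no samples agreed within sampling noise.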

Additional observations from a re-analysis of the deposited data

How the results depend on the processing

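The number of rows that met the rule was 42 with nuclear tRNA counts as the denominator and 19 with a ratio of 2, and 12 to 15 when a sample was left out. The log2 ratio of the summed rows, 3.66, was 6.01 with nuclear tRNA counts as the denominator and 0.40 with antisense counts added, and 3.46 to 3.79 when a sample was left out. Both changes follow from how these alternatives are built: nuclear tRNAs took a smaller share of counts under RNAi, and the mean CPM of C31E10.10 exceeds that of the summed set in both groups. For C31E10.t1 alone, antisense counts turned the log2 ratio to -0.24.

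The 21 other rows of the same anticodons, with a log2 ratio of -1.33, turned to 1.58 with nuclear tRNA counts as the denominator (exact permutation p = 0.1), and ranged over -1.76 to -0.81 when a sample was left out. By same-numbered pairs, the replicate block, the log2 ratios were 3.66 for the set and -1.22 for these rows. Of them, 3 were called, and 1 by edgeR, 5 with the replicate block and 3 to 5 when a sample was left out. Of the rows of the same amino acids, 9 were called, 19 with the block and 9 to 15 when a sample was left out. Over all transcripts 79 were called, 57 by edgeR, 278 with the block and 128 with total-count size factors. When a sample was left out, 74 to 180 were called, the highest without RNAi replicate 1. Total-count size factors moved the median log2 fold change of all transcripts to 0.15, against 0.00. The causes were not tested. No antisense ncRNA at the set was called in any setting.

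Summing tRNAs within a few edits of each other was not run, because no sequences were used here. Depth limits C31E10.t1, ZK154.t1, ZK678.t4 and T07D10.t1, which had fewer than 20 counts over all controls.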
